A study of Mus musculus with 18 samples.

Results

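Cardiac muscle genes were followed in lung metastases of a mouse mammary carcinoma. The 9 genes were Myh6, Myl7, Myl4, Actc1, Tnnt2, Tnni3, Nppa, Ryr2 and Sln, out of 49585 gene identifiers in the count table. They were chosen by name as genes of heart muscle after earlier results of these lesions had been seen, and Myh6 was already known to be high in lesion NK1-1. The values below are therefore a description, and no test of these 9 genes is read as support. Cells of AT3, a mammary carcinoma line from an MMTV-PyMT transgenic mouse, carrying GFP and mCherry had been placed in the mammary fat pad, from where they spread to the lung. The hosts all lacked Rag2 and Il2rg by the strain label, although the growth protocol writes Rag1 in place of Rag2, and such hosts lack T, B and NK cells of their own. On day 11 the mice of the group NK transferred received 60000 activated mouse NK cells intravenously, and those of the group Ctrl received PBS. Fluorescent lesions were cut from frozen lung sections by laser capture, and 2 ng of total RNA per lesion went into each library. The titles name 7 NK transferred lesions from 2 mice (NK1 and NK2) and 11 Ctrl lesions from 3 mice (KO1, KO2 and KO3), and the age and sex of the mice were not given in the sources used here. Lesions are named by mouse and lesion number, so NK1-1 is lesion 1 of mouse NK1. The title prefixes were read as mice. Lesions of a mouse share that mouse, so treatments were compared over the 5 mice.

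In the mouse, striated heart muscle is not limited to the heart: the pulmonary veins carry a sleeve of atrial-type cardiomyocytes into the lung. Contraction in these cells depends on myosin (Myh6 with the light chains Myl7 and Myl4) pulling on actin filaments (Actc1) that carry the troponin switch (Tnnt2, Tnni3), after calcium is released through Ryr2 and before it is pumped back by a SERCA pump that Sln restrains. Atrial cardiomyocytes also make the hormone precursor Nppa, and Myl7, Myl4, Sln and Nppa are used as atrial rather than ventricular markers in the adult. In a captured piece of lung, the number of such cells and the RNA per cell cannot be told apart.

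Promoter sequence is shown for the genes in which letters of known muscle motifs were found close to the start, since several of these genes were high in the same lesions. The RefSeq table (GRCm38.p6) held a window for 8 of the 9 genes, with none for Sln and 2 for Tnnt2. The 250 bases before the start were searched on both strands for the CArG box bound by SRF, the MEF2 site, CATTCC (the MCAT motif of TEAD factors), AGATAA (a motif of zinc finger factors of the Gata family), TCAAGTG and, as a variant of this Nkx motif, TTAAGTG. Sequences run 5′ to 3′ on the gene's strand with the matches in capitals.
Myl7 (chr11:5898783-5899032, minus strand): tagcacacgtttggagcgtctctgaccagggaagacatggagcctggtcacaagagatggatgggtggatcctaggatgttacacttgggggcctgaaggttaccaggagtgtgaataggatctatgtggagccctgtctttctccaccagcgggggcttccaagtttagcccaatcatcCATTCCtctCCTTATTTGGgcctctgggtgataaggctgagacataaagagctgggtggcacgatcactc
Actc1 (chr2:114052876-114053125, minus strand): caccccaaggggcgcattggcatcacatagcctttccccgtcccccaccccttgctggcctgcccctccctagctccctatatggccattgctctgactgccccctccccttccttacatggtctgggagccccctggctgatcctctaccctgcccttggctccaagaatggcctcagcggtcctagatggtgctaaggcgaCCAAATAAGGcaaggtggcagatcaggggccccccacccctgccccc
Tnnt2 (chr1:135836084-135836333, plus strand): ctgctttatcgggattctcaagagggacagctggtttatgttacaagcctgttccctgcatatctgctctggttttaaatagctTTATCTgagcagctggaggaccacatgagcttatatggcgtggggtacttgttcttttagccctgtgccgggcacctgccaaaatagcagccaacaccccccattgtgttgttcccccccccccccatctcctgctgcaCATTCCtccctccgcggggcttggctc
In the Myl7 window CATTCC lay at bases 70 to 65 before the start, beside and not overlapping a CArG box at bases 61 to 52. The Actc1 window held a CArG box at bases 47 to 38. The Tnnt2 window held CATTCC at bases 27 to 22, and the capitals TTATCT at bases 166 to 161 are AGATAA read on the other strand. Among 32851 promoter windows of this length, a CArG box was found in 1.47% and CATTCC in 12.6%. AGATAA was found in 9.99% of the windows. CATTCC was also found in the window of Myh6, at bases 206 to 201. No member window held the MEF2 letters (2.92% of all windows) or either Nkx motif (4.67%). A match describes letters only and is not a binding site.

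The library totals ran from 2964241 to 11798853 counts, and the lowest totals were those of lesions NK1-3 and NK1-2. Keratins of epithelial cells, Krt8 and Krt18, had counts in all 18 lesions. Krt18 was at 19.7 CPM in NK1-1, its lowest level in any lesion, and at 92.5 CPM in KO2-1, with a median of 62.8 CPM. Epcam had counts in 17 lesions, and the alveolar surfactant gene Sftpc had counts in all 18. The mitochondrial ribosomal RNA mt-Rnr2 took 47.6% of the counts of NK1-1 and 13% of those of KO2-1. Over the 18 lesions this share ran from 12.1% in KO2-2 to 68.7% in KO1-5. It was between 47.6% and 65.3% in the lesions of NK1 and between 13.7% and 22.8% in those of NK2. These 2 mice therefore differed in the share, and its part in their levels was not tested. Levels are given as CPM, which are counts scaled to a common library size by TMM over the 18 lesions, and intervals on counts above 0 are exact Poisson 95% intervals that cover counting error only. For a count of 0 the limit used throughout is 3 counts, which was between 0.168 and 2.40 CPM in the lesions with a 0.

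The 9 genes had 3019 counts in the 18 lesions, and lesion NK1-1 alone held 1771 of them (58.7%). Lesion KO2-1, from a PBS-treated mouse, held 443 (14.7%), and the other 16 lesions held 805 (26.7%). NK1-1 was the only lesion with counts for all 9 genes, KO2-1 had counts for 8, and the other 16 lesions had counts for between 1 and 6. The summed level was 282 CPM in NK1-1 and 37.3 CPM in KO2-1. It was 92.1 CPM in NK1-3 and 20.2 CPM in KO3-2, and in these lesions Tnni3 alone made 81.7 and 20.2 CPM. Over the 7 NK transferred lesions the lowest, median and highest sums were 1.96, 4.55 and 282 CPM, and over the 11 Ctrl lesions they were 0.918, 5.06 and 37.3 CPM. The groups therefore overlapped over nearly all of the Ctrl range, and their medians were close.

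**Figure D1:**
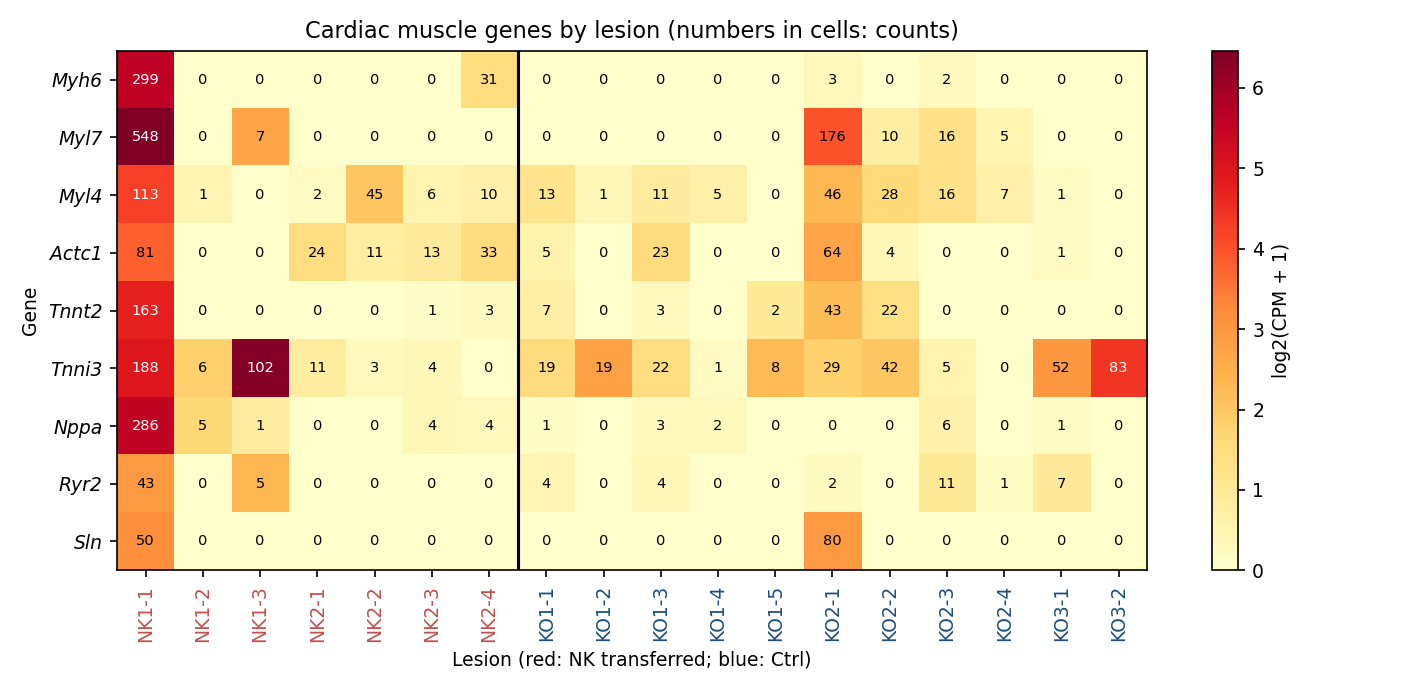
Counts (printed in the cells) and levels (colour, log2 of CPM + 1) of the 9 genes in the 18 lesions, with NK transferred lesions left of the black line and Ctrl lesions right of it. The column of NK1-1 is filled for every gene, KO2-1 is filled for all but Nppa, and Tnni3 and Myl4 have counts in 14 and 13 of the other 16 lesions.

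**Figure D2:**
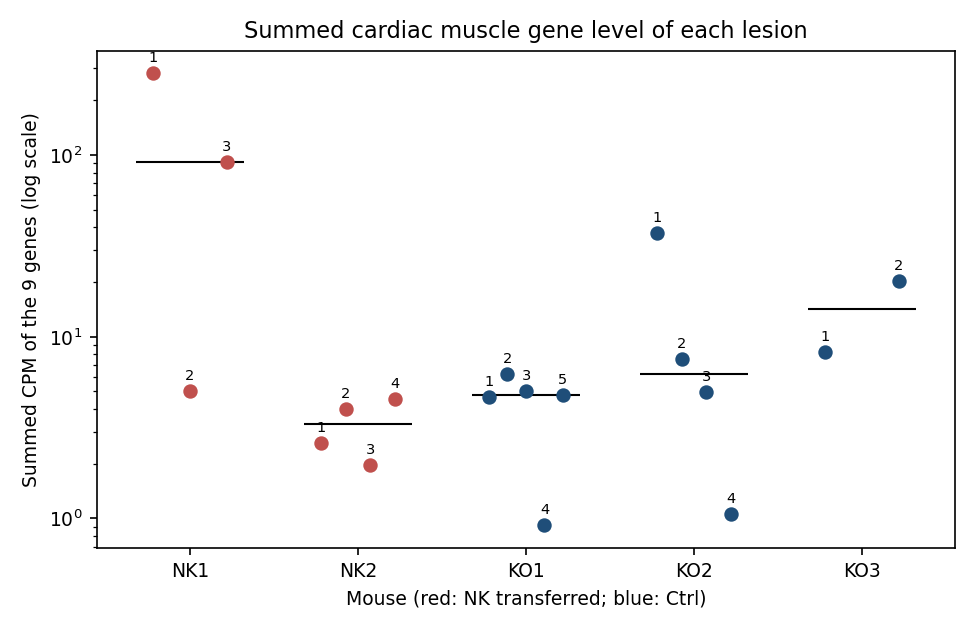
Summed CPM of the 9 genes on a log scale, with 1 point per lesion, numbered by lesion and placed by mouse, and a line at the median of each mouse. NK1-1 stands at 282 CPM and KO2-1 at 37.3 CPM, and the lesions of NK2 lie between 1.96 and 4.55 CPM.

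Of the thick filament genes, Myh6 encodes the alpha myosin heavy chain, the motor of atrial muscle and of the adult mouse ventricle (chromosome 14, 54941921 to 54966927, minus strand, GRCm38). It had 299 counts in NK1-1, 31 in NK2-4, 3 in KO2-1 and 2 in KO2-3, and 0 in the other 14 lesions. Its level was 47.6 CPM in NK1-1 (95% interval 42.3 to 53.3) and 1.74 CPM in NK2-4. Both lesions with more than a few counts were NK transferred, and the highest Ctrl value was 0.253 CPM. Myh6 hosts the microRNA gene Mir208a in an intron and overlaps the antisense gene Gm49130, and strand was not stated for the counting.

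Myl7 encodes the atrial regulatory light chain (chromosome 11, 5896637 to 5898782, minus strand). It had the highest count of any of the 9 genes, with 548 in NK1-1 and 176 in KO2-1. It had 7 counts in NK1-3 and 10, 16 and 5 in lesions KO2-2, KO2-3 and KO2-4. The other 12 lesions were at 0. Counts thus came from all 4 lesions of mouse KO2 and 2 of 3 lesions of mouse NK1, and from none of the 11 lesions of NK2, KO1 and KO3. In CPM the values were 87.2 (80.0 to 94.8) in NK1-1 and 14.8 (12.7 to 17.2) in KO2-1, with at most 5.60 elsewhere.

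Myl4, the atrial essential light chain that is also made in embryonic muscle (chromosome 11, 104550663 to 104595753, plus strand), was found more widely. It had counts in 15 of 18 lesions, with 113 in NK1-1, 46 in KO2-1, 45 in NK2-2 and 28 in KO2-2. The lowest, median and highest levels were 0, 0.420 and 17.98 CPM in NK transferred lesions and 0, 0.574 and 3.88 CPM in Ctrl lesions. The second highest NK transferred lesion, NK2-2, was at 3.07 CPM, inside the Ctrl range.

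Of the thin filament genes, Actc1 encodes cardiac actin (chromosome 2, 114047282 to 114053548, minus strand). It had 81 counts in NK1-1 and 64 in KO2-1. The 4 lesions of mouse NK2 had 24, 11, 13 and 33, and KO1-3 had 23. By level NK1-1 was at 12.9 CPM and KO2-1 at 5.39 CPM, and no other lesion passed 1.85 CPM. Actc1 was the only one of the 9 genes apart from Myl4 with counts in all 4 lesions of mouse NK2.

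Tnnt2 encodes cardiac troponin T, which ties the troponin complex to tropomyosin (chromosome 1, 135836354 to 135852260, plus strand). It had 163 counts in NK1-1, 43 in KO2-1 and 22 in KO2-2, and between 0 and 7 in each of the other 15 lesions. The levels were 25.9 CPM in NK1-1 (22.1 to 30.2), 3.62 CPM in KO2-1 (2.62 to 4.88) and 1.57 CPM in KO2-2. No NK transferred lesion other than NK1-1 was above 0.168 CPM.

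Tnni3, the inhibitory troponin subunit of the adult heart (chromosome 7, 4518305 to 4524229, minus strand), did not follow the other genes. It had counts in 16 of 18 lesions, with 188 in NK1-1, 102 in NK1-3, 83 in KO3-2 and 52 in KO3-1. It was highest by level in NK1-3, at 81.7 CPM, with 29.9 CPM in NK1-1 and 20.2 CPM in KO3-2, and it was only 2.44 CPM in KO2-1. Tnni3 shares exon sequence on the same strand with its neighbour Dnaaf3, a dynein assembly factor of ciliated cells (overlap 4522933 to 4524229), so reads there can belong to either gene. Dnaaf3, named after its values were seen, had 86 counts in NK1-3, 45 in NK1-1, 138 in KO3-1, 21 in KO3-2 and 0 in KO2-1. Its part in the Tnni3 counts was not tested. Across the 18 lesions Tnni3 had the lowest correlation with the mean of the other 8 genes, with r = 0.34 against 0.61 to 0.86 for the rest (log2 CPM, a description). This contrast rested on NK1-1. Without that lesion the r of Tnni3 was 0.01, and that of Nppa was lower, at -0.05. Myh6, Myl4, Actc1 and Ryr2 then had r between 0.16 and 0.32, and Tnnt2, Sln and Myl7 had 0.49, 0.69 and 0.75.

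Of the calcium genes, Ryr2 encodes the calcium release channel of the heart (chromosome 13, 11553102 to 12106945, minus strand). It had 43 counts in NK1-1, 11 in KO2-3, 7 in KO3-1 and 5 in NK1-3, and at most 4 in any other lesion. KO2-1 had 2 counts. Its level of 6.84 CPM in NK1-1 (4.95 to 9.21) was above the 4.002 CPM of NK1-3, which rested on those 5 counts. Sln encodes sarcolipin, which restrains the calcium pump (chromosome 9, 53850164 to 53854560, plus strand). All 130 of its counts came from NK1-1, with 50, and KO2-1, with 80. The other 16 lesions were at 0. Its levels in both, 7.95 CPM (5.90 to 10.5) and 6.74 CPM (5.35 to 8.39), had overlapping counting intervals, and which lesion was higher depended on the scaling.

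Nppa, the precursor of atrial natriuretic peptide (chromosome 4, 148000722 to 148002079, plus strand), was found mostly in NK1-1. It had 286 counts there, and between 0 and 6 in each of the other 17 lesions. KO2-1 had 0 counts. The level in NK1-1 was 45.5 CPM (40.4 to 51.1), and the next lesion, NK1-2, stood at 2.08 CPM from 5 counts. Nppa overlaps the antisense gene Gm13054, which had 37 counts in NK1-1.

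NK1-1 and KO2-1 differed in which of the genes they held, not only in the amount. The summed level was 7.55 times as high in NK1-1 as in KO2-1 (95% counting interval 6.796 to 8.393). The ratio depends on the scaling: with levels scaled by the total count it was 4.15 times, and every ratio of this pair was lower by a factor of 1.82. On the TMM scale, Sln was at 1.18 times (0.812 to 1.70), which turned to 0.648 times when scaled by the total. Actc1 was at 2.39 times (1.70 to 3.37) and Myl7 at 5.88 times (4.95 to 7.01). Tnnt2 was at 7.16 times (5.09 to 10.3) and Tnni3 at 12.2 times (8.25 to 18.8). Dnaaf3, which shares exon sequence with Tnni3, had 45 and 0 counts in this pair. Its part in the Tnni3 ratio and in the Tnni3 levels per kilobase was not tested. Ryr2 was at 40.6 times (10.6 to 346) from 43 and 2 counts. Myh6 was at 188 times, and its interval of 63.8 to 917 was wide because KO2-1 had 3 counts. These ratios compare a pair of libraries and not the treatments. Per kilobase of the main isoform, Myl7 led in both lesions, at 148 CPM per kb in NK1-1 and 25.1 in KO2-1. In NK1-1 it was followed by Nppa (52.6 CPM per kb), Tnni3 (32.8), Tnnt2 (21.6) and Myl4 (19.1). In KO2-1 it was followed by Sln (5.12 CPM per kb), Myl4 (4.11), Actc1 (3.66) and Tnnt2 (3.02), whose counting intervals overlapped each other. Ryr2 was the lowest of the 9 genes per kilobase in NK1-1, at 0.407 CPM per kb. The order below Myl7 depended on the length used. Per kilobase of all annotated exons, Tnni3 stood at 14.5, Actc1 at 7.96, Myl4 at 3.88 and Tnnt2 at 3.35 CPM per kb in NK1-1, and Nppa stayed the second. In KO2-1 that length gave Actc1 3.33, Tnni3 1.19, Myl4 0.836 and Tnnt2 0.468 CPM per kb, below Sln.

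**Figure D3:**
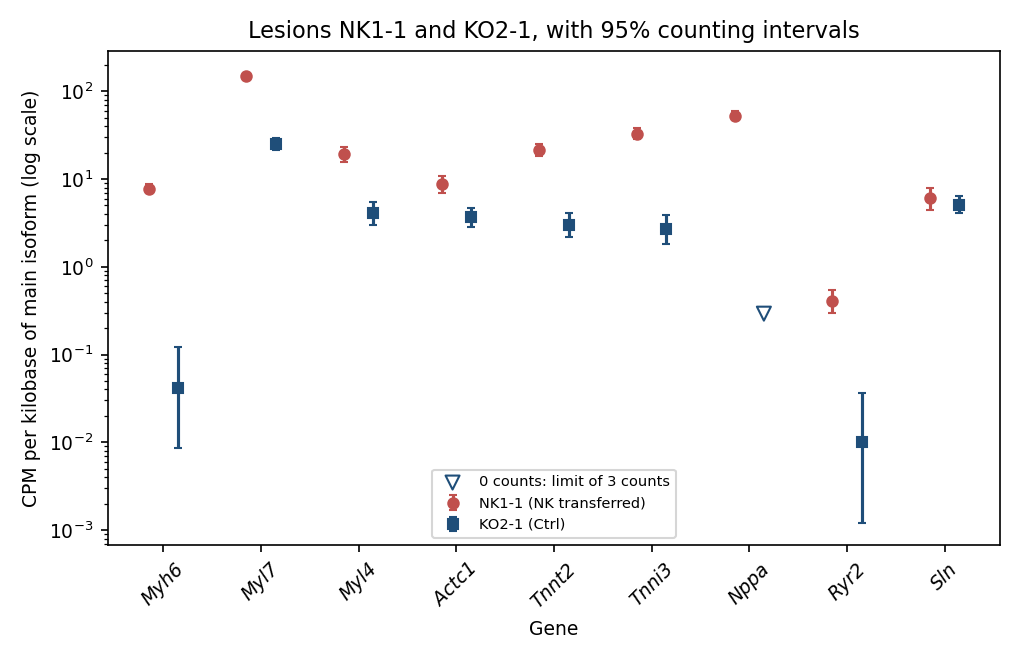
Level of each gene in NK1-1 (red circles) and KO2-1 (blue squares), in CPM per kilobase of the main isoform on a log scale, with exact Poisson 95% counting intervals and an open triangle at the limit of 3 counts for a count of 0. The points of Sln lie at 6.04 and 5.12 CPM per kb with overlapping intervals, and those of Myh6 lie at 7.78 and 0.0414.

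Of the 8 genes that passed the filter on low counts, 7 had their highest level in NK1-1, the exception being Tnni3. Over all 16917 genes that passed, 13% did. For 5 of the 8, Myl7, Myl4, Actc1, Tnnt2 and Sln, both NK1-1 and KO2-1 were above the other 16 lesions, against 1.83% of all genes. The choice of the genes used NK1-1, and KO2-1 was singled out from the values of the same genes, so nothing is read from either count. Without this pair of lesions Sln, at 0 counts in the other 16, and Tnnt2 failed the filter. With levels scaled by the total, Sln was higher in KO2-1. Nppa failed the filter and was also highest in NK1-1.

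A further 68 cardiac genes were taken from lists by role, of which 65 had a count and 41 passed the filter. Of the 41, 13 (31.7%) were highest in NK1-1, against 13% of all genes that passed. NK1-1 and KO2-1 were both above the other lesions for 7 (17.1%): Actn2 (alpha-actinin of the Z-disc), Asph, Cox7a1 (muscle form of a respiratory chain subunit), Fabp3 (fatty acid carrier), Mb (myoglobin), Myoz2 (a Z-disc protein) and Pln (phospholamban, which restrains the calcium pump). Over all genes that passed, the share was 1.83%. The pair was singled out from the values of the 9 genes. In the other 16 lesions Mb and Actn2 had 0 counts, Myoz2 had 1, and Pln and Cox7a1 had 9 each. These genes therefore passed the filter only through this pair. Nothing is read from these shares. None of the 41 passed edgeR's quasi-likelihood test between treatments (the counts over all genes, and by other tools, stand with that test). In the energy list, 6 of 9 genes were highest in NK1-1. This and the later counts by list can include genes that failed the filter. The 13% covers genes that passed, and no matching share was counted, so the counts by list are a description. Mb had 902 counts in NK1-1 and 93 in KO2-1 and 0 in the other 16 lesions. The levels of Mb were 144 and 7.84 CPM. Fabp3 stood at 18.1 and 2.61 CPM in these lesions against at most 1.33 CPM elsewhere. Cox7a1, named after its values were seen, went the other way, with 210 counts in KO2-1 and 5 in NK1-1. Ckmt2, the mitochondrial creatine kinase of striated muscle, also named after its values were seen, had 81 counts in NK1-1, 1 in KO2-1 and 0 elsewhere. Eno3, an enolase of muscle, was near 7.29 CPM (the median of the other lesions) in both.

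In the thick filament list, 6 of 9 genes were highest in NK1-1. The giant elastic protein gene Ttn stood at 47.1 CPM in NK1-1 and 2.78 CPM in KO2-1, with at most 8.95 CPM elsewhere. Myom1, which ties myosin at the M-line, was at 9.23 and 4.30 CPM but reached 16.8 CPM in another lesion. In the calcium list, 5 of 10 genes were highest in NK1-1. Atp2a2, the calcium pump itself, was at 116 CPM in NK1-1 and 113 CPM in KO2-1 against a median of 113 CPM in the others, and the pump is made in many cell types. Asph was at 117 and 111 CPM, with at most 97.6 CPM elsewhere. Cacna1c was at 22.8 and 17.2 CPM, below the median of 27.5 CPM.

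In the remaining cardiac lists, the genes with the highest mean levels were not above the other lesions in both NK1-1 and KO2-1. Some genes with lower levels were, among them 3 of 7 thin filament genes. These were Actn2, Lmod2 (6 and 7 counts) and Xirp1 (6 and 3 counts), the latter 2 named after their values were seen. In the list of Z-disc and intercalated disc genes it was 1 of 9, Myoz2. It was 0 in the lists of ion channels and connexins and of hormones. In the thin filament list, 3 of 7 genes were highest in NK1-1. There Tpm1 was at 1326 CPM in NK1-1 and 1755 CPM in KO2-1 with a median of 1646 CPM elsewhere, Nebl was at 6.05 and 10.3 CPM with a median of 12.6 CPM, and Tmod1 was at 5.73 and 4.05 CPM with a median of 9.80 CPM. In the list of Z-disc and intercalated disc genes, 5 of 9 were highest in NK1-1. There Ankrd1 was at 18.8 and 37.3 CPM, Nexn at 14.95 and 3.54 CPM, and Pkp2 at 9.07 and 1.35 CPM, against medians of 26.0, 7.37 and 12.8 CPM. In the list of ion channels and connexins, 1 of 9 was highest in NK1-1. The connexin gene Gja1 was at 143 and 287 CPM and Gjc1 at 25.5 and 16.9 CPM, inside the range of the other lesions. Gja5, the atrial connexin, named after its values were seen, had 0 and 6 counts and reached 8.56 CPM elsewhere. In the hormone list, 0 of 4 genes were highest in NK1-1. Nppb, the ventricular relative of Nppa, was at 0.795 CPM in NK1-1 and 1.011 CPM in KO2-1, against a median of 0.964 CPM. Pam, an enzyme that trims peptide hormones, was at 19.6 and 12.9 CPM, and Corin, which cuts the Nppa precursor, had 3 and 0 counts. Bmp10, made by atrial muscle, had 0 counts in all 18 lesions.

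Of the 11 cardiac transcription factors, 4 were highest in NK1-1. Mef2a was at 144 CPM there against at most 71.1 CPM in any lesion outside NK1-1 and KO2-1, and at 47.7 CPM in KO2-1. Mef2c was at 20.5 and 34.9 CPM, and Gata6 at 10.02 and 26.7 CPM, both within the range of the others. Nkx2-5, a master factor of heart muscle, had 0 counts in NK1-1 and 1 in KO2-1. Nkx2-5 was named after its values were seen.

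Markers of ventricular muscle had few counts. The 7 ventricular genes summed to 5.57 CPM in NK1-1, the highest of the 18 lesions, to 1.011 CPM in KO2-1, and to between 0 and 3.64 CPM in the others. Myl2, the ventricular regulatory light chain, had 1 count in all, in KO1-4. Myl3, the ventricular essential light chain, had 17 counts in NK1-1 and 7 in KO2-1 and 0 elsewhere. Lrrc10, named after its values were seen, had 8 and 2 counts, with both lesions above the other 16, and Irx4 had 0 counts in every lesion. Myh7, the slow myosin heavy chain, had 9 and 3 counts and reached 26 in KO3-1, and Mpped2 was at 0 in both. Of the 19 skeletal muscle genes, 6 had no count in any lesion, and their sum was 24.0 CPM in NK1-1, 3.12 CPM in KO2-1 and at most 9.25 CPM elsewhere. Myl1, a light chain of fast skeletal muscle that is also made in the embryonic heart, gave 121 of the counts of NK1-1 and was at 0 in KO2-1. Ryr1 had 2 and 25 counts in the pair, and Actn3 had 19 and 0. Smooth muscle markers summed to 181 CPM in NK1-1 and 120 CPM in KO2-1, within the range of 29.6 to 279 CPM in the others, and all 10 had counts in both lesions. Of the 10, 4 were highest in NK1-1, and for none were both lesions above the other 16. These 4, named after their values were seen, were Cnn1 (29.4 CPM against at most 6.21 CPM outside the pair), Tagln (40.6 against 20.5), Synpo2 (24.0 against 10.5) and Myl9 (14.95 against 7.16), and their part in the NK1-1 values was not tested. Acta2 was at 24.0 and 30.3 CPM, Smtn at 13.7 and 29.2 CPM and Mylk at 12.4 and 24.1 CPM.

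Markers of other tissue differed between NK1-1 and KO2-1. The 11 adipocyte genes summed to 1812 CPM in NK1-1, 1.85 CPM in KO2-1 and at most 11.2 CPM elsewhere, and 10 of the 11 were highest in NK1-1. Cfd, the fat cell protease adipsin, had 5862 counts in NK1-1 and 0 in every other lesion. Retn was at 246 CPM and Cidec at 241 CPM in NK1-1, and 1 adipocyte gene had no count there. Fat cell genes therefore moved with the cardiac genes in NK1-1 and not in KO2-1, and their part in the NK1-1 values was not tested. The 8 fibroblast and matrix genes summed to 9989 CPM in NK1-1, the highest of the 18 lesions, with 6974 CPM from Col3a1, 1609 CPM from Fn1 and 361 CPM from Dcn. Lum (482 CPM) and Dpt (430 CPM), named after their values were seen, gave more than Dcn. In KO2-1 they summed to 1349 CPM, inside the range of 508 to 5094 CPM in the others. The 10 endothelial genes summed to 44.4 CPM in NK1-1 and 462 CPM in KO2-1, the latter above the other 16 lesions (40.8 to 411 CPM). Calcrl (20.5 and 97.6 CPM), Cdh5 (7.16 and 37.5 CPM) and Kdr (4.61 and 52.8 CPM) had the highest means over the 18 lesions. In KO2-1, Vwf (99.95 CPM) and Ptprb (75.9 CPM), named after their values were seen, were also among the highest. The 10 lung epithelial genes summed to 2833 and 945 CPM, within the range of 311 to 29380 CPM. Sftpc was at 52.2 CPM in NK1-1, its lowest level in any lesion, and 604 CPM in KO2-1, Sftpb at 6.52 and 47.0 CPM, and the club cell gene Scgb1a1 at 1868 and 0.674 CPM. Nerve and glia genes summed to 8.27 and 2.44 CPM, with at most 208 CPM elsewhere. Tubb3 was at 1.43 CPM in NK1-1. Of 6 hepatocyte genes only Cyp2e1 had counts in NK1-1, 2040 of them, and Alb and Apoa1 were at 0 there. Cyp2e1 is also made in fat.

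Markers of mesothelium, the cell layer on the outer surface of the lung and in the heart sac, were highest in the mice whose lesions held Myl7. The 6 genes summed to between 69.8 and 415 CPM in the lesions of NK1 and between 98.9 and 218 CPM in those of KO2. In NK2, KO1 and KO3 the sums were between 4.29 and 50.4 CPM. The mice were grouped by their Myl7 counts after the values were seen, and lesions of a mouse share that mouse. The share of all genes that part the mice in this way was not counted, so nothing is read from the gap. The 415 CPM of NK1-3 was mostly Krt19, at 367 CPM, which airway epithelium also makes. Without Krt19, left out after its values were seen, the sums were between 40.1 and 167 CPM in NK1, between 84.8 and 184 CPM in KO2 and at most 11.7 CPM in the other mice. Upk3b, a uroplakin of mesothelium, had 136, 163 and 58 counts in the lesions of NK1 and 737, 1197, 388 and 759 in those of KO2. It had 0 counts in 9 of the other 11 lesions, 13 in KO1-4 and 16 in KO3-2. Upk1b was at 7.16 CPM in NK1-1 and 22.8 CPM in KO2-1, and Krt19 at 29.8 and 2.61 CPM. NK1-2, with 163 Upk3b counts, had 0 Myl7 counts. Within NK1, the lesion with the most cardiac counts had the lowest mesothelial sum. The part of mesothelium in the cardiac values was not tested.

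**Figure D4:**
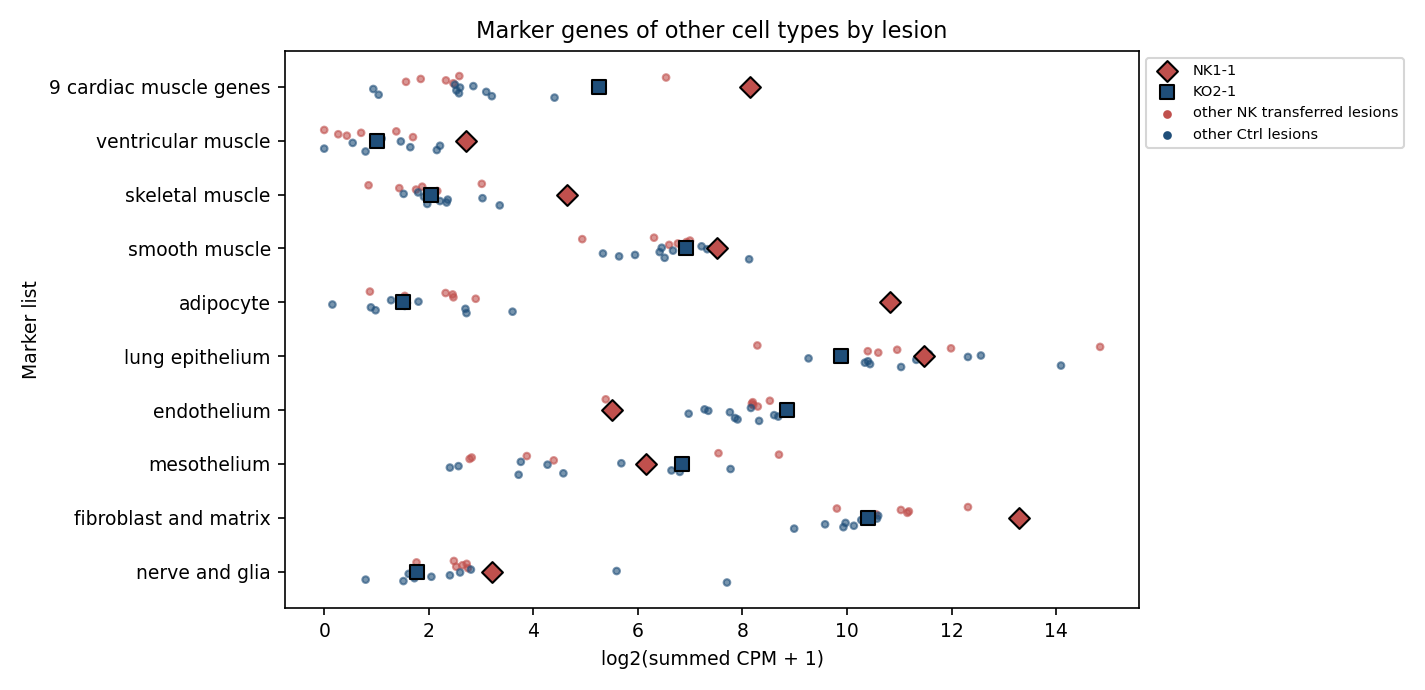
Summed level of each marker list as log2 of CPM + 1, with 1 point per lesion, NK1-1 as a red diamond, KO2-1 as a blue square, other NK transferred lesions as red points and other Ctrl lesions as blue points. NK1-1 stands alone at 1812 CPM in the adipocyte row, and KO2-1 lies among the other lesions there at 1.85 CPM.

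Between treatments, the counts of each mouse's lesions were summed and compared with edgeR's quasi-likelihood test, 2 NK transferred mice against 3 Ctrl mice. Of the 16917 genes tested, 0% passed an adjusted p of 0.05 (Benjamini-Hochberg over all genes), and 426 had an unadjusted p under 0.05. None of the 8 tested members passed. With DESeq2, 1 member (Nppa) passed as higher, against 0.151% of 17928 genes called higher. When genes with low counts were kept, edgeR called 4 members (Myh6, Myl7, Tnnt2 and Nppa) higher, against 0.535% of 26158 genes. It then also called 4 of the other cardiac genes, among them Smpx, Mb and Ckmt2. Nppa had been removed by the filter of the first fit and was tested with DESeq2 under its default filtering, so that tool and filter changed together.

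By mouse, Myh6 was at 28.5 CPM in NK1 and 0.553 CPM in NK2, and among the Ctrl mice at 0.110 CPM in KO2 and 0 in KO1 and KO3. It alone, 1 of the 8 tested members, had both NK transferred mice above all 3 Ctrl mice, a pattern held by 7.94% of all genes tested. Its log2 fold change was 8.13 ± 1.85 (SE, n = 2 and 3 mice, edgeR quasi-likelihood adjusted p = 0.9998), and the NK2 value came from lesion NK2-4 alone. Myl7 was at 52.8 CPM in NK1 and 4.54 CPM in KO2 and had no count in NK2, KO1 or KO3, so the mice of each treatment lay on both sides. Its log2 fold change was 4.05 ± 2.69 (SE). Nppa was at 27.8 CPM in NK1 and between 0.0870 and 0.167 CPM in the other 4 mice. NK2, at 0.143 CPM, lay inside the Ctrl range, and DESeq2 gave a log2 fold change of 6.73 ± 1.48 (SE, adjusted p = 0.005425) that rested on NK1. Sln was at 4.76 CPM in NK1, 1.76 in KO2 and 0 in NK2, KO1 and KO3.

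For the other members, too, NK1 was above NK2. Tnnt2 was at 15.5 CPM in NK1 and 0.0714 in NK2, against 0.334, 1.43 and 0 in KO1, KO2 and KO3. Tnni3 was at 28.2 and 0.321 CPM against 1.92, 1.67 and 11.8 CPM, so NK2 was the lowest of the 5 mice. Ryr2 was at 4.57 and 0 CPM against 0.223, 0.307 and 0.609 CPM. For Actc1 the values were 7.71 and 1.45 CPM against 0.780, 1.49 and 0.0870 CPM, and for Myl4 10.9 and 1.12 CPM against 0.835, 2.13 and 0.0870 CPM. For these 2 genes NK2 lay below KO2 and above the other Ctrl mice. The median log2 fold change of the 8 tested members was 2.55, beside -0.03 over all genes tested and 0.18 over the 41 other cardiac genes, of which 24 were positive. Without lesion NK1-1 the median over the 6 members then tested was -0.21, with 3 positive. Without KO2-1 it was 3.72 over 7 members, and without both lesions it was 1.26 over 5 members.

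**Figure D5:**
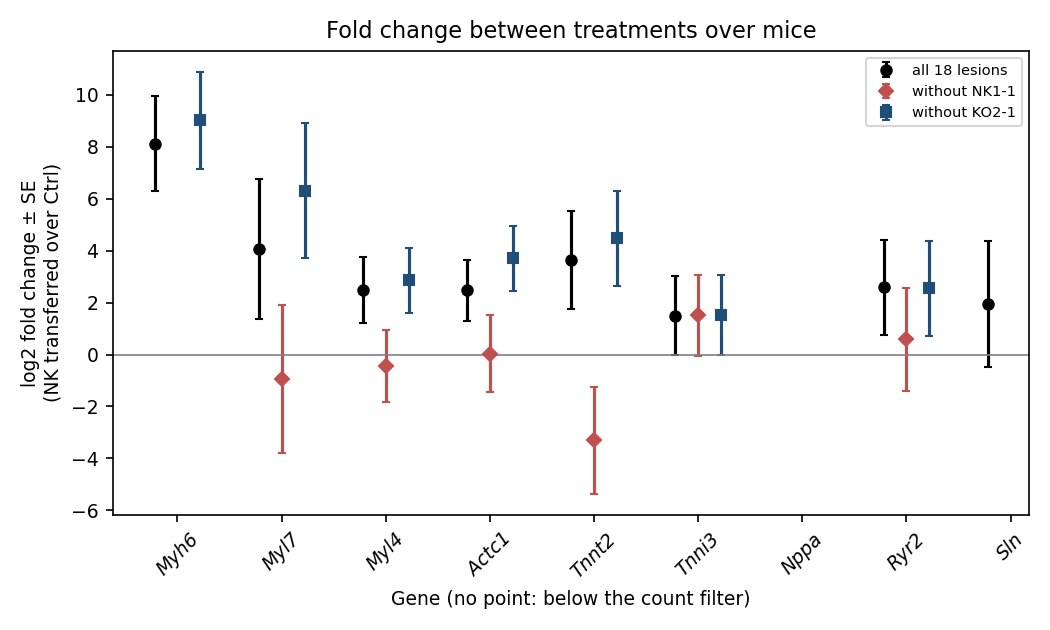
Log2 fold change (NK transferred over Ctrl) ± SE of each gene over 2 and 3 mice, by edgeR, with all 18 lesions (black), without NK1-1 (red) and without KO2-1 (blue). No point is drawn where a gene failed the count filter. Without NK1-1 the value of Myl7 passes below 0, and Tnnt2 goes from 3.64 to -3.31.

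Over the 18 lesions, the genes outside the 9 with the levels most like the mean of the 9 (Pearson r of log2 CPM) were Myoz2 (r = 0.95), Mb (0.95), Actn2 (0.94), Pln (0.93), Ddx3x (0.92), Fmr1 (0.92), Slc2a4 (0.89), Matr3 (0.88), Rpl9 (0.88) and Adrb3 (0.88). The points share library, depth and mouse, and the value of NK1-1 dominates them. Myoz2, Mb and Actn2 had at most 1 count in the 16 lesions outside NK1-1 and KO2-1, while Ddx3x, Fmr1, Matr3 and Rpl9 had counts in all 16. Slc2a4 and Adrb3, a glucose carrier of muscle and fat and a receptor of fat cells, had 79 and 638 counts in NK1-1. Over 17 lesions, without NK1-1, the most alike were Gm5608 (r = 0.85), Akr1c18 (0.80), Cox7a1 (0.79), Otulin (0.79) and Myoz2 (0.79). Of the first 10 genes over 18 lesions, 3 (Myoz2, Mb and Actn2) were also among the first 10 over 17 lesions. With NK1-1 left out, Mb and Actn2 had counts in KO2-1 alone, and Myoz2 had 1 count outside it. Their r over 17 lesions therefore rested on KO2-1 and does not show that the likeness holds more widely. Among the 9 genes themselves, the median r of the 36 pairs was 0.61 over 18 lesions, with 34 positive, and 0.17 over the 17 lesions without NK1-1, with 25 positive.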

How the data were processed

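RNA of 18 laser-captured lesions was sequenced. The submitters' processing notes name STAR, RSEM 1.2.28, DESeq2, bcl2fastq 2.17 and build mm10, and strand and filters were not stated. The authors deposited RSEM expected counts per gene and a table of normalized values on a log2 scale, whose exact transformation was not stated. Of 49585 gene identifiers, 49326 matched a GENCODE M21 symbol.

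Expected counts were rounded per lesion and, for the treatment comparison, summed per mouse (NK transferred 2, Ctrl 3). Genes were filtered with filterByExpr, scaled by TMM and tested with edgeR 4.0.16 (robust quasi-likelihood, R 4.3.3), with Benjamini-Hochberg adjustment over all genes tested. The procedure was tested on simulated data. Alternatives used DESeq2 1.42.0, limma 3.58.1, other filters and scalings, the deposited log2 table, and leaving out each lesion or mouse. Nothing says that the mouse numbers pair mice across treatments. Depth limits precision: total counts were 2964241 to 11798853. Pairs of lesions of a mouse differed by far more than sampling noise (lowest chi-square per degree of freedom 23.8), so none were merged.

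The 9 members and the 18 lists were chosen with earlier results of these data known. Named genes were the 9 members, in each list those past the threshold (at most 4) and otherwise the 3 with the highest mean level, the 10 genes most alike over 18 lesions and the 5 most alike over 17; other names are marked as chosen after their values were seen or serve to define a cell type, and some genes that the rule names are not reported here. Main isoforms (GENCODE M21) set the lengths for CPM per kb.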

Additional observations from a re-analysis of the deposited data

Results flagged for a closer look

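Among the 7 NK transferred lesions, 10 values were tested for a single lesion standing apart, as the gap to the nearest lesion divided by the whole range, and 9 were past Dixon's critical value of 0.568. Chance flags about 1 in 20 such values where they are independent, but these genes share the lesions, the lesions share 2 mice, many values are 0, and the genes were chosen with NK1-1 known to be high for Myh6, so the values are given as a description. NK1-1 stood apart for Myh6 (0.963 of the range), Myl7 (0.936), Myl4 (0.829), Actc1 (0.856), Tnnt2 (0.994), Nppa (0.954) and Sln (1.0, since the other 6 lesions were at 0), and for the summed level of the 9 genes (0.678). Tnni3 was flagged for NK1-3 (0.634), at 81.7 CPM against 29.9 CPM in NK1-1. The 11 Ctrl lesions were too many for this rule and were not tested, so KO2-1 was not assessed by it.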

How the results depend on the processing

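The count of genes called was 0, and it became 39 with DESeq2, 224 without a filter on low counts and 7 with the mouse number as a replicate block, which shares only a number and pairs no mice. Members called went from 0 to 1 with DESeq2 and 4 without a filter, where Myh6 (8.06), Myl7 (3.98) and Tnnt2 (3.56) passed, and other cardiac genes called went to 4 without a filter. The members' median log2 fold change was 2.55, 1.12 with the replicate block, 0.26 with lesions as samples and mouse as a random block (limma voom), 0.60 on the deposited normalized table, and 1.26 without NK1-1 and KO2-1, an alternative added after seeing the data. Signs reversed for Ryr2 (-0.31) and Tnni3 (-0.77) with limma voom and for Myl4 (-0.10) without both lesions. The cause was not tested. Leaving out 1 lesion or mouse gave 0 to 4 genes called (4 without NK2), 0 members and 0 other cardiac genes called, and a median from -3.49 (without NK1) to 3.72 (without KO2-1). The ranges were -8.85 to 6.30 for Myl7, -6.80 to 3.62 for Ryr2, -3.31 to 4.63 for Tnnt2, -3.95 to 2.98 for Tnni3, 3.56 to 11.69 for Myh6, -7.50 to 2.95 for Sln, -0.45 to 3.58 for Myl4 and 0.03 to 3.72 for Actc1. A gene that failed the filter in a fit has no value there. Of 23 fits, Myl7 and Tnnt2 had a value in 22, Myh6 in 21 and Sln in 20. Myh6 and Sln failed the filter without NK1-1, so their ranges do not cover that fit. NK1-1 held 299 of the 335 Myh6 counts. Fitted values against a treatment at 0 counts depend on the prior count and are no bound. Scaling by the total gave summed levels of 212 CPM for NK1-1 and 51.1 CPM for KO2-1, and leaving out mitochondrial genes gave 418 and 60.5 CPM. Of the 10 genes most like the members, 0 were shared by rank correlation and 3 without NK1-1, where the r of these 3 rested on KO2-1.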
